A study of Mus musculus with 7 samples.

Results

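The monocyte-attracting CC chemokines and receptors described here are 9 genes chosen by symbol: the ligands Ccl2, Ccl7, Ccl12, Ccl8, Ccl3, Ccl4 and Ccl5 and the receptors Ccr2 and Ccr1. All 9 were found among the 28233 genes of the deposited expression table. They were measured by bulk RNA sequencing in 7 subcutaneous tumours of B16mhgp100 cells, a mouse B16 melanoma line, grown in C57BL/6 mice. In 4 tumours (Cr1l 1 to 4) the cells over-expressed Cr1l, a membrane regulator of complement. The other 3 tumours (Vec 5, 6 and 7) carried the vector. Every mouse, vector group included, received anti-PD1 antibody at 200 µg per dose from day 10 after inoculation, 2 times a week for 4 doses, with harvest 1 day after the final one. The labels give no age or sex of the mice, no promoter for the transgene and no statement on whether the cells were clonal. The mice kept their own immune cells, and a bulk tumour mixes those with melanoma cells and stroma.

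CC chemokines are small secreted proteins that guide leukocytes through G protein-coupled receptors. In mice, CCL2, CCL7 and CCL12 act on CCR2, the receptor that classical Ly6C-high monocytes use to leave bone marrow and enter inflamed tissue. CCL3, CCL5 and CCL7 act on CCR1, and CCL4 is a close relative of CCL3. In tumours, CCR2-positive monocytes are a known source of macrophages, and CCL5 is a known product of activated T cells and NK cells.

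The 7 ligand genes lie on mouse chromosome 11 and both receptor genes on chromosome 9. The 250 bases before the annotated start of 3 ligands are shown, because 1 of them (Ccl12) separated the groups, 1 (Ccl8) did not, and 1 (Ccl3) belongs to the other ligand family. They come from RefSeq on GRCm38.p6, an older build than the mm39 the submitters name, and capitals mark matches to TATAA, the core of a TATA box, and to GAGGAA, a core of PU.1 sites, on either strand. Ccl12 is on the plus strand at chr11:82101595-82101844, Ccl8 on the plus strand at chr11:82114935-82115184 and Ccl3 on the minus strand at chr11:83649379-83649628.
Ccl12: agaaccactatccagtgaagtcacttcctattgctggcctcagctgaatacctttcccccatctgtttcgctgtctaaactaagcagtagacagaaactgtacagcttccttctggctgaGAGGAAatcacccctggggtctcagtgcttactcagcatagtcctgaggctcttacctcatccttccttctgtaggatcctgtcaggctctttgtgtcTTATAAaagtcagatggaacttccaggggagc
Ccl8: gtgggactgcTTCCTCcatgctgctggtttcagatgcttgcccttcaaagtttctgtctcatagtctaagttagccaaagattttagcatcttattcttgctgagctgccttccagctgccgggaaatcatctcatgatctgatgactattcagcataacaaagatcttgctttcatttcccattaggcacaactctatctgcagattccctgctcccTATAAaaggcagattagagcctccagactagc
Ccl3: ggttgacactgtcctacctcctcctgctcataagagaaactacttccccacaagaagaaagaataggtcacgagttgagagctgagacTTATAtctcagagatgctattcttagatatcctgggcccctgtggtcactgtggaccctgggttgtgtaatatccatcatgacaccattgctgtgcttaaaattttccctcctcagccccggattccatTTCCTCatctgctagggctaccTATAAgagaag

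On the strand of the gene itself, a TATAA began 31 bases before the start of Ccl12, 32 before that of Ccl8 and 11 before that of Ccl3. In the first of these, a match on the other strand overlapped it. Windows were at hand for 5 of the 9 genes, the 3 shown and both receptors. TATAA was found in 4 of these 5 windows, against 22.8% of 32851 windows of the same length. GAGGAA was found in 4 of 5, against 23.3%. The AP-1 letters TGANTCA (6.75% of all windows), the NF-kB letters GGGANNTTCC (1.21%) and the ISRE letters GAAANNGAAA (2.98%) had no match on either strand in the 5 windows. The Ccl12 and Ccl8 windows were identical over 57.5% of aligned columns and those of Ccl3 and Ccl8 over 54.2%, against 45.9% to 50% for the pairs that include a receptor and 48.4% for Ccl12 with Ccl3. A match describes letters only.

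Cr1l itself, the targeted gene, measured 76.37, 78.56, 77.91 and 83.57 TPM (transcript abundance scaled by gene length and library) in Cr1l tumours, against 52.41, 46.29 and 54.94 TPM in Vec tumours. The groups did not overlap, in the direction the labels give. Read numbers cannot be taken back from TPM, so depth and counting error remain unknown. The melanocyte markers summed to 9173 to 20406 TPM in Cr1l tumours and to 13349 to 20749 TPM in Vec tumours, with none of the 8 at 0, so the labelled tissue carried its markers. Cr1l 3 and Cr1l 4 stood apart from the other 5 tumours in leukocyte and fibroblast transcripts, and Vec 6 and Vec 7 in red cell transcripts. Results are therefore also given without each of these pairs. The 5 red cell markers summed to 106 to 389 TPM in Cr1l tumours, against 416, 41285 and 9694 TPM in Vec 5, Vec 6 and Vec 7. An extra number in the titles of these last 2 tumours is not explained.

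All 9 genes averaged more in Cr1l tumours than in Vec tumours, and for 6 of them every Cr1l tumour stood above every Vec tumour. In limma on log2(TPM + 1), with Benjamini-Hochberg adjustment over the 14954 genes that averaged 1 TPM or more, none of the 9 passed an adjusted p of 0.05. Only 0.0134% of all genes did, which is 2 genes, both lower in Cr1l tumours: the predicted gene Gm56655 and the circadian clock gene Per1, named here because they are those 2. At an unadjusted p under 0.05, 7 of the 9 were higher, against 9.49% of all genes tested. Non-overlapping groups with Cr1l higher were found for 9.29% of all genes. The median difference of the 9 was 2.14 on the log2(TPM + 1) scale, against 0.05 over all genes tested. All 9 differences were positive on that scale, as were 8281 of the 14954 genes tested. In the authors' deposited table, a DESeq2 comparison of counts, 7 of the 9 had an adjusted p under 0.05, all higher, against 4.74% of 18297 genes higher at that threshold. That table does not name its numerator. It is read here as Cr1l over Vec, since Cr1l itself is positive in it. The 9 genes were chosen with earlier results of these data known, and they share the same 7 tumours. Counts of the 9 set beside shares of all genes are therefore descriptions, not tests. In bulk tumours, fewer cells of a type and less RNA per cell cannot be told apart in any of these values.

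**Figure D1:**
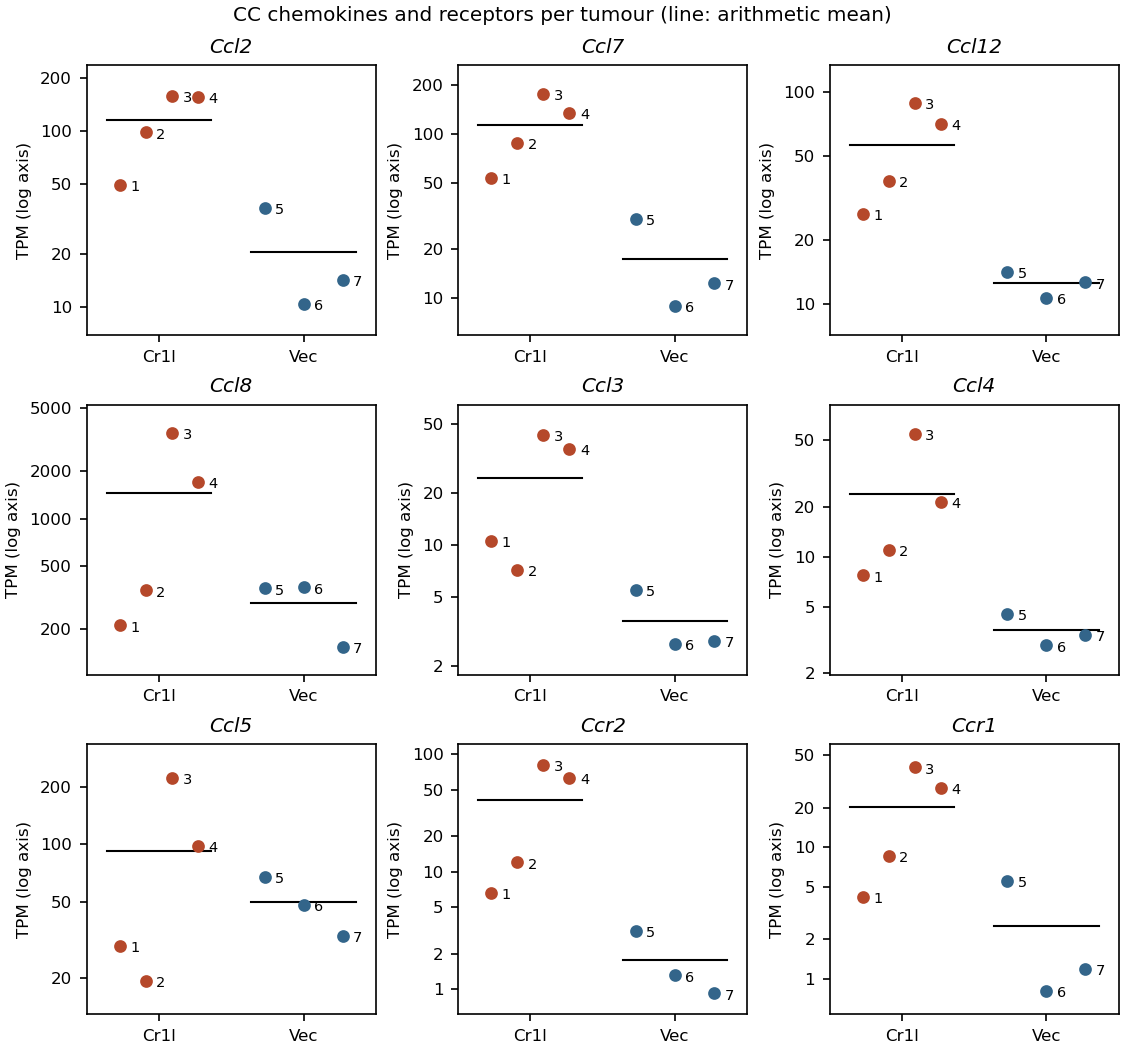
TPM of each of the 9 genes in every tumour, on logarithmic axes, with Cr1l tumours 1 to 4 left and Vec tumours 5 to 7 right; points are single tumours and lines arithmetic means. For Ccl2, Ccl7, Ccl12, Ccl3, Ccl4 and Ccr2 all Cr1l points lie above all Vec points, while Ccl8, Ccl5 and Ccr1 overlap.

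Ccl2, the main monocyte attractant, measured 49.34, 98, 157.2 and 155.1 TPM in Cr1l 1 to 4, against 36.51, 10.32 and 14.18 TPM in Vec 5 to 7. The groups did not overlap, and the lowest Cr1l tumour stood 1.35 times above the highest Vec tumour. The means were 115 ± 51.6 TPM in Cr1l tumours (SD, n = 4) and 20.3 ± 14.1 TPM in Vec tumours (SD, n = 3). The log2 difference was 2.50 (SE 0.52), with an adjusted p of 0.136 in limma. An exact two-sided permutation test over the 35 assignments of 4 and 3 tumours gave p = 0.0286, the smallest it can give. The authors' deposited table gives 2.50 (adjusted p = 0.000265).

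Ccl7, which attracts monocytes through CCR2, followed Ccl2 closely, with 53.93, 88.73, 174.7 and 135.1 TPM in Cr1l tumours and 30.51, 8.96 and 12.32 TPM in Vec tumours. Again no Vec tumour reached the lowest Cr1l tumour, and Vec 5 was the highest of the vector group. Its log2 difference was 2.69 (SE 0.49, limma adjusted p = 0.119), the smallest adjusted p of the 9, and the exact permutation p was 0.0286. The authors' deposited table gives 2.71 (adjusted p = 3.36e-05). The ratio of Ccl2 to Ccl7 stayed between 0.9 and 1.15 in Cr1l tumours and between 1.15 and 1.2 in Vec tumours, while both genes varied over 3-fold within each group (Ccl2 by 3.19 and 3.54 times, Ccl7 by 3.24 and 3.41 times).

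Ccl12, a CCR2 ligand of mice, measured 26.51, 37.95, 89.05 and 70.57 TPM in Cr1l tumours and 14.19, 10.66 and 12.61 TPM in Vec tumours. The Vec tumours lay within 1.33 times of each other, the tightest vector group of the 9 genes, and the lowest Cr1l tumour was 1.87 times above the highest of them. The log2 difference was 1.93 (SE 0.40, limma adjusted p = 0.132, exact permutation p = 0.0571). The authors' deposited table gives 2.13 (adjusted p = 0.000964).

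Ccl8, which in mice also acts on CCR8, was the most abundant of the 9 genes in each of the 7 tumours, and its groups overlapped. It measured 211.4, 352.1, 3512.31 and 1718.49 TPM in Cr1l 1 to 4, against 362, 367.7 and 154.5 TPM in Vec 5 to 7. Cr1l 3 and Cr1l 4 stood far above the vector tumours, whereas Cr1l 1 and Cr1l 2 lay within their range, a 16.6-fold spread in 1 group. On the log2 scale the difference was 1.58 (SE 0.94, limma adjusted p = 0.431, exact permutation p = 0.314), and without Cr1l 3 and Cr1l 4 it was -0.01. The authors' deposited table gives 2.26 (adjusted p = 0.0615). Ccr8 was low, with 0.08, 0.66, 5.17 and 0.88 TPM in Cr1l tumours and 0.98, 0.41 and 0.53 TPM in Vec tumours, and its groups overlapped.

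Leaving Ccl8 aside, the 3 CCR2 ligands summed to 130, 225, 421 and 361 TPM in Cr1l tumours, against 81.2, 29.9 and 39.1 TPM in Vec tumours. The groups did not overlap in that sum. As a share of the 4 ligands together, Ccl8 made up 73.7% ± 14.4 in Cr1l tumours (SD, n = 4) and 84.7% ± 6.84 in Vec tumours (SD, n = 3), and the groups overlapped (exact permutation p = 0.314). Shares of Ccl2, Ccl7 and Ccl12 overlapped as well. Cr1l 1 and Cr1l 2 had the lowest Ccl8 shares, 62% and 61%, and Vec 6 the highest, 92.5%.

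Ccl3 and Ccl4, inflammatory ligands made by activated macrophages and lymphocytes, both separated the groups. Ccl3 measured 10.54, 7.12, 42.87 and 35.93 TPM in Cr1l tumours and 5.49, 2.66 and 2.78 TPM in Vec tumours (log2 difference 2.14, SE 0.62, limma adjusted p = 0.225, exact permutation p = 0.0571). Ccl4 measured 7.7, 10.92, 54.66 and 21.36 TPM in Cr1l tumours and 4.5, 2.92 and 3.38 TPM in Vec tumours (log2 difference 2.06, SE 0.58, limma adjusted p = 0.225, exact permutation p = 0.0571). In both genes Cr1l 3 was the highest tumour and Vec 5 the highest vector tumour. The lowest Cr1l tumour was 1.3 times the highest Vec tumour for Ccl3 and 1.71 times for Ccl4. The authors' deposited table gives 2.72 for Ccl3 (adjusted p = 0.00351) and 2.69 for Ccl4 (adjusted p = 0.0053).

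Ccl5, which like CCL3 acts on CCR1, did not separate the groups. It measured 29.34, 19.28, 222.5 and 97.94 TPM in Cr1l 1 to 4, against 67.31, 47.96 and 33.11 TPM in Vec 5 to 7. Cr1l 1 and Cr1l 2 lay below all 3 vector tumours and Cr1l 3 and Cr1l 4 above all 3. The log2 difference was 0.32 (SE 0.78, limma adjusted p = 0.852, exact permutation p = 0.743). Without Cr1l 3 and Cr1l 4 it was -0.97 (limma adjusted p = 0.306), and without Cr1l 3 alone -0.30. The authors' deposited table gives 0.87 (adjusted p = 0.524). T cell markers, 10 genes in all and none at 0 in a whole group, summed to 29, 16.3, 200 and 79 TPM in Cr1l 1 to 4 and to 40.7, 37.8 and 18 TPM in Vec 5 to 7. The 8 NK cell markers summed to 11.7 to 143 TPM in Cr1l tumours and to 9.58 to 19 TPM in Vec tumours. The part of these cells in the Ccl5 values was not tested. Per Cd3e, a T cell receptor subunit, Ccl5 stood at 9.68 to 17.5 in Cr1l tumours and at 13.1 to 20.2 in Vec tumours.

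Within a tumour, the make-up of these 3 ligands differed between the groups. Ccl5 made up 61.7%, 51.7%, 69.5% and 63.1% of the summed TPM of Ccl3, Ccl4 and Ccl5 in Cr1l tumours, against 87.1%, 89.6% and 84.3% in Vec tumours. The groups did not overlap: every Cr1l tumour had less Ccl5 and more Ccl3 and Ccl4 in the mixture than every Vec tumour. The mean share of Ccl5 was 61.5% ± 7.39 in Cr1l tumours (SD, n = 4) and 87% ± 2.63 in Vec tumours (SD, n = 3), a difference of -25.5 percentage points (exact permutation p = 0.0286, the smallest possible, unadjusted over the 7 shares compared). Ccl3 made up 19.4% ± 4.39 and 6.38% ± 1.23 in Cr1l and Vec tumours (exact permutation p = 0.0571), and Ccl4 made up 19.1% ± 6.94 and 6.63% ± 1.72 (exact permutation p = 0.0286). The 3 shares add to a whole, so they are not independent. A ratio within a tumour does not depend on the scaling between tumours. The sums of the 3 ligands were 47.6, 37.3, 320 and 155 TPM in Cr1l tumours and 77.3, 53.5 and 39.3 TPM in Vec tumours.

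**Figure D2:**
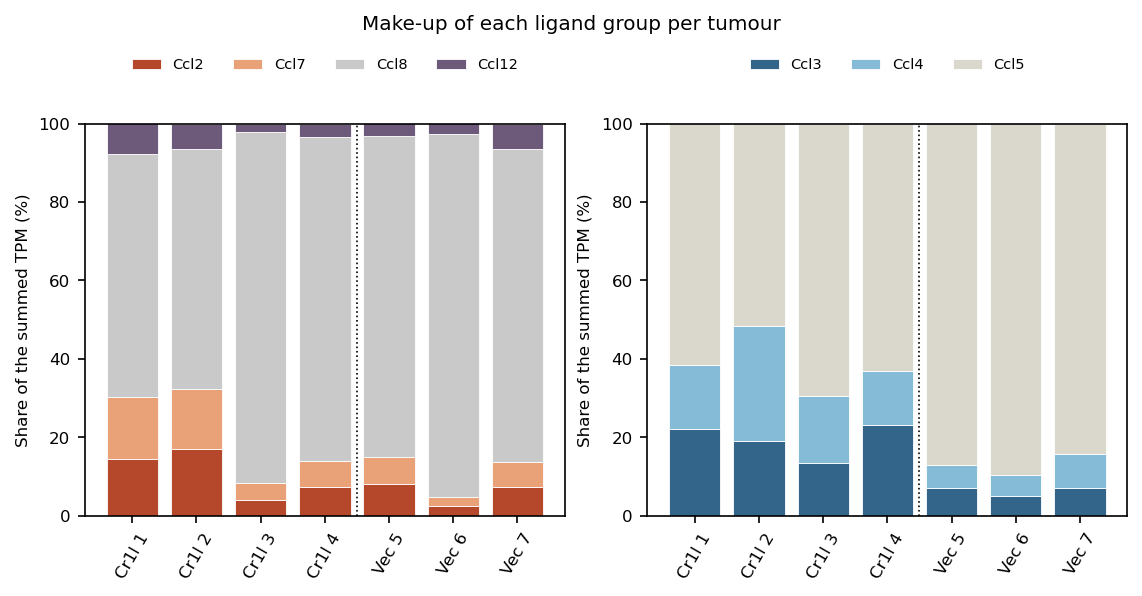
Share in percent of each ligand in the summed TPM of its group, 1 bar per tumour, with the CCR2 ligands and Ccl8 on the left and Ccl3, Ccl4 and Ccl5 on the right; the dotted line separates Cr1l from Vec tumours. Ccl5 takes 51.7% to 69.5% of the right-hand bars in Cr1l tumours and 84.3% to 89.6% in Vec tumours, while Ccl8 dominates every left-hand bar.

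Ccr2, the receptor of classical monocytes, showed the widest gap of the 9 genes. It measured 6.61, 11.99, 80.99 and 63.11 TPM in Cr1l 1 to 4, against 3.13, 1.31 and 0.92 TPM in Vec 5 to 7. The lowest Cr1l tumour stood 2.11 times above the highest Vec tumour, and Cr1l 3 and Cr1l 4 were several times above Cr1l 1 and Cr1l 2. The means were 40.7 ± 37 TPM in Cr1l tumours (SD, n = 4) and 1.79 ± 1.18 TPM in Vec tumours (SD, n = 3), a ratio of 22.8. The log2 difference was 3.35 (SE 0.84, limma adjusted p = 0.194, exact permutation p = 0.0571), and 1.92 without Cr1l 3 and Cr1l 4. The authors' deposited table gives 4.51 (adjusted p = 3.3e-06). The pseudocount of 1 TPM shrinks differences of low genes, which touches Ccr2 in Vec tumours most.

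Ccr1, a receptor of CCL3, CCL5 and CCL7 on monocytes, macrophages and neutrophils, measured 4.19, 8.59, 40.35 and 28.2 TPM in Cr1l tumours and 5.57, 0.81 and 1.19 TPM in Vec tumours. The groups overlapped through a single pair, Vec 5 lying above Cr1l 1. Cr1l minus Vec was 2.40 on the log2 scale (SE 0.78, limma adjusted p = 0.248, exact permutation p = 0.114). The authors' deposited table gives 3.04 (adjusted p = 0.0065). Without Vec 5, or without Cr1l 1, the groups no longer overlapped, which follows from the overlap resting on that 1 pair.

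Monocyte and macrophage markers varied with these genes. The 18 markers, among them Ly6c2, Csf1r, Adgre1 and C1qa, summed to 689, 1165, 6751 and 5746 TPM in Cr1l 1 to 4, against 1843, 951 and 574 TPM in Vec 5 to 7. The groups overlapped: Cr1l 1 and Cr1l 2 carried less than Vec 5, and Cr1l 3 and Cr1l 4 more than any vector tumour. No marker was at 0 in all tumours of a group, and 16 of 18 had a positive log2 difference, against 8281 of 14954 genes tested. None of the 18 passed the threshold. The mean log2(TPM + 1) over the list was 4.44, 5.05, 7.38 and 7.16 in Cr1l tumours and 5.78, 4.65 and 3.97 in Vec tumours (exact permutation p = 0.286). Markers of fibroblasts, which can also make CCL2 and CCL7, summed to 742, 1126, 6104 and 4873 TPM in Cr1l tumours and to 1191, 464 and 150 TPM in Vec tumours, and none of the 8 was at 0. Of the markers tested of other leukocytes, 3 of 5 for dendritic cells and 2 of 5 for neutrophils were higher without overlap. So were 3 of 8 for NK cells and 1 of 2 for B cells, against 9.29% of all genes. It was 0 of 10 for T cells, 0 of 5 for mast cells and eosinophils and 0 of 18 for monocytes and macrophages. The NK cell marker Ncr1 averaged 3.22 TPM in Cr1l and 0.0367 TPM in Vec tumours. It passed the minimum through the Cr1l tumours, so nothing is read from these counts. The dendritic cell list summed to 6.37 to 48.2 TPM in Cr1l tumours and to 3.88 to 6.5 TPM in Vec tumours, and the neutrophil list to 10.7 to 205 TPM and to 12.9 to 34.2 TPM in Cr1l and Vec tumours, with the defining neutrophil marker Ly6g at 0 in all tumours but Cr1l 4 (0.44 TPM). The part of these cells in the ligand and receptor values was not tested.

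Set against the marker mean of the same tumour, a scale chosen after seeing the data, Ccr2, Ccl7 and Ccl3 kept their separation, Ccr1 gained one, and Ccl2, Ccl12 and Ccl4 lost theirs. Subtracting that mean lowers every gene's difference by the same amount, so that the median over all genes stood at -1.15, against 0.05 without it. On this scale Ccr2 lay at -1.51, -1.35, -1.02 and -1.15 in Cr1l 1 to 4, against -3.74, -3.44 and -3.03 in Vec 5 to 7. The 4 Cr1l tumours lay within a narrow band although their Ccr2 levels differed 12.3-fold, and all stood above all vector tumours. The difference of means was 2.14 log2 units (exact permutation p = 0.0286, unadjusted, 9 genes compared). Ccr1 differed by 1.19 and Ccl3 by 0.93 (exact permutation p = 0.0286 each), and Ccl7 by 1.49 (exact permutation p = 0.0571), all without overlap. These 4 of 9 stand beside 0.662% of all genes tested that were higher without overlap on this scale. The subtraction itself lowered that share, which was 9.29% without it, so the contrast is not read as a result. Ccl3 is counted by a narrow margin, with Cr1l 2 at -2.03 and Vec 7 at -2.05. In limma on the same scale the adjusted p was 0.525 for Ccr2.

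Ccl2 differed by 1.29 on the marker scale, Ccl12 by 0.73, Ccl4 by 0.85 and Ccl8 by 0.37, all with overlapping groups. Ccl5 turned negative, at -0.88, also with overlap (exact permutation p = 0.171). Taken marker by marker, the ratio of Ccr2 was higher in every Cr1l tumour than in every Vec tumour for 18 of 18 markers. The same held for Ccr1 with 15 markers, for Ccl2, Ccl7 and Ccl3 with 9 each, for Ccl8 and Ccl4 with 3 each, for Ccl12 with 2 and for Ccl5 with 0. The ratio of Ccl5 was lower without overlap for 5 markers, and that of Ccl8 for 1. Ratios to 2 single genes are given as descriptions, chosen after their values were seen. Ccr2 per Ly6c2, a surface marker of classical monocytes, stood at 0.54 to 0.781 in Cr1l tumours and at 0.0633 to 0.125 in Vec tumours. Ccr2 per Csf1r, the growth factor receptor of monocytes and macrophages, stood at 0.431 to 0.508 and at 0.075 to 0.116 in Cr1l and Vec tumours.

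**Figure D3:**
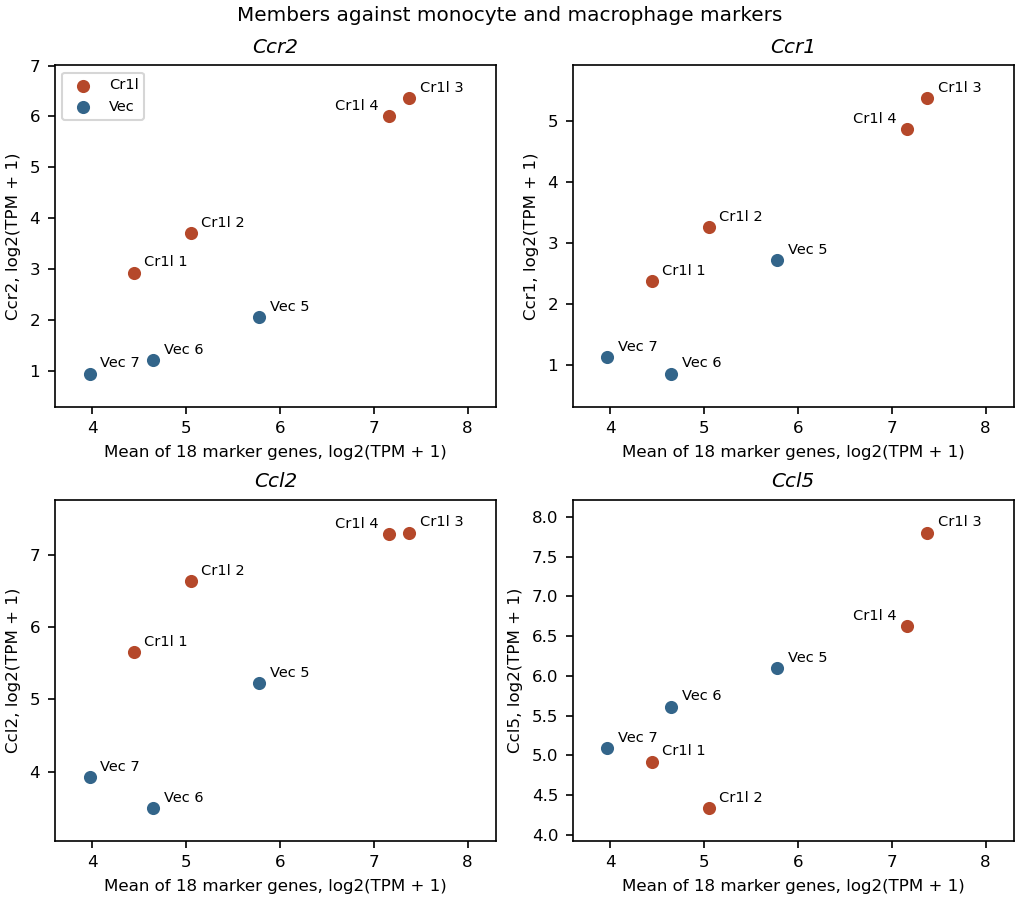
log2(TPM + 1) of Ccr2, Ccr1, Ccl2 and Ccl5 in each tumour against the mean log2(TPM + 1) of the 18 monocyte and macrophage markers; red points are Cr1l tumours and blue points Vec tumours. At like marker levels the Cr1l points lie above the Vec points for Ccr2, Ccr1 and Ccl2, with no such gap for Ccl5.

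With the marker mean as a covariate in limma, the differences were 2.10 for Ccr2 and 2.05 for Ccl7 (adjusted p = 0.0624 each), 1.40 for Ccl12 (adjusted p = 0.0681), 1.83 for Ccl2 (adjusted p = 0.0869) and 1.27 for Ccr1 (adjusted p = 0.134). None passed the threshold. Ccl3 stood at 1.29 and Ccl4 at 1.30 in that fit, Ccl8 at 0.21 and Ccl5 at -0.75. Leaving out Cr1l 3 and Cr1l 4 gave a like picture, with 1.92 for Ccl2 and Ccr2, 2.12 for Ccl7, 1.29 for Ccl12, 1.11 for Ccl3, 1.16 for Ccl4 and 1.25 for Ccr1. Leaving out Vec 6 and Vec 7 gave 2.70 for Ccr2, 1.73 for Ccl7, 1.75 for Ccl12, 1.49 for Ccl2 and 1.25 for Ccr1, with Vec 5 as the lone vector tumour, assumed to vary like the Cr1l tumours. The lowest adjusted p of the 9 was then 0.748. Leaving out tumours cannot lower a count of genes without overlap. Without Cr1l 3 and Cr1l 4, 6 of the 9 genes stood higher without overlap, against 22.8% of all genes in the smaller comparison. Without Vec 6 and Vec 7 it was also 6 of 9, against 20.5%.

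**Figure D4:**
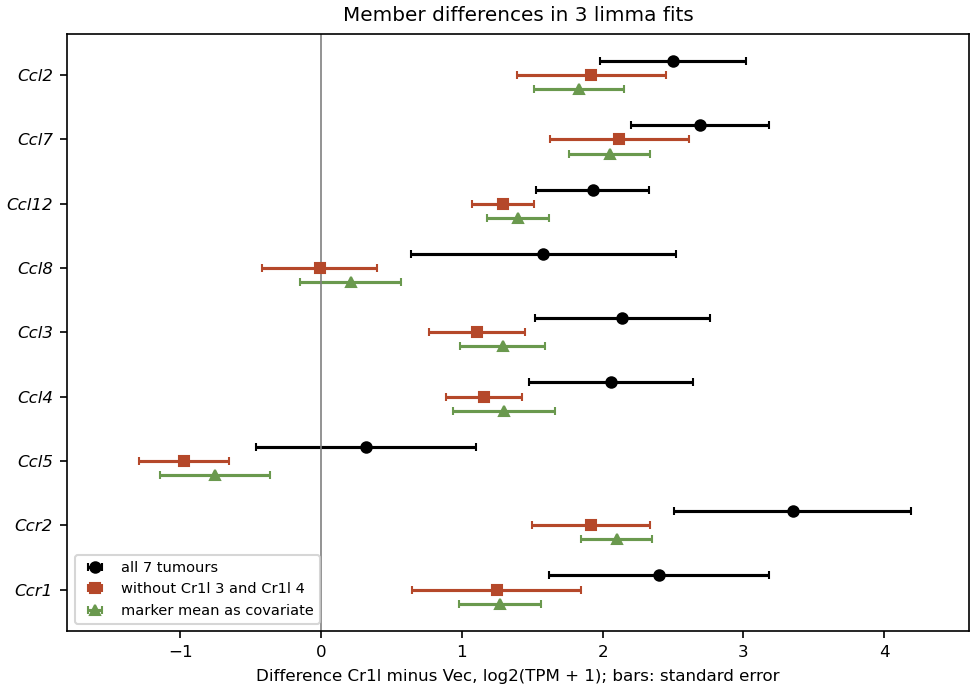
Difference Cr1l minus Vec in log2(TPM + 1) for each gene in 3 limma fits; bars are standard errors. With all 7 tumours (black circles) values run from 0.32 for Ccl5 to 3.35 for Ccr2, and only Ccl8 and Ccl5 lie at or below 0 without Cr1l 3 and Cr1l 4 (red squares).

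Likeness of pattern was measured as the mean absolute difference of log2(TPM + 1) over the 7 tumours, each gene centred on its own mean, so that 0 means the same pattern. Among the 9 genes, Ccl2 was most like Ccl7, at 0.14, and least like Ccl5, at 1.17. Ccr2 was most like Ccr1, at 0.46, and Ccl5 most like Ccl8, at 0.73. Of all other genes tested, those most like Ccl2 were Cxcl5, a chemokine of neutrophils, at 0.27, Ptgis, the prostacyclin synthase, at 0.28, and Col5a3, a collagen chain, at 0.35. Next came Calcrl, a receptor of adrenomedullin, at 0.37, and Kctd11 at 0.38. Those most like Ccr2 were Mgl2, a lectin of macrophages and dendritic cells, at 0.24, Arg1, the arginase of alternatively activated macrophages, at 0.29, Car4, a carbonic anhydrase, at 0.31, Ptafr, the receptor of platelet-activating factor, at 0.32, and Spon2 at 0.34. Those most like Ccl5 were AW112010 and Cd8a, the CD8 co-receptor, at 0.14 each, Il2rb, a receptor chain of IL-2 and IL-15, at 0.15, and Cd3g and Aif1 at 0.17 each. Mgl2 averaged 72 TPM in Cr1l tumours and 2.78 TPM in Vec tumours, and Arg1 averaged 189 TPM and 14.4 TPM in Cr1l and Vec tumours. These are values over 7 tumours that share depth and cell content, with no test.

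Of the other CC ligands, 13 were in the table and 11 were tested. None passed the threshold, and 4 were higher at an unadjusted p under 0.05, against 9.49% of all genes tested. Ccl22, a ligand of CCR4, measured 1.89, 2.68, 16.96 and 7.83 TPM in Cr1l tumours and 1.02, 0.88 and 0.42 TPM in Vec tumours (log2 difference 1.87, limma adjusted p = 0.251). Ccl24, a ligand of the eosinophil receptor CCR3, measured 2.59, 2.75, 29.97 and 8.34 TPM in Cr1l tumours and 1.29, 0.36 and 0.48 TPM in Vec tumours (2.25, limma adjusted p = 0.251). These 2 of 11 were higher without overlap, against 9.29% of all genes tested. Both averaged under 1 TPM in Vec tumours (0.773 and 0.71 TPM), as did Ccl1 (0.267 TPM), Ccl17 (0.853 TPM) and Ccl19 (0.963 TPM). These genes passed the minimum through the Cr1l tumours, so nothing is read from the 4 of 11 or the 2 of 11. Ccl6 (2.55) and Ccl9 (2.34), ligands of CCR1 in mice made by myeloid cells, had overlapping groups. In the authors' deposited table Ccl6, Ccl9, Ccl22 and Ccl24 were the 4 of 13 such ligands that were higher at an adjusted p under 0.05, against 4.74% of all genes.

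Ccl21a, a ligand of CCR7 made by lymphoid stroma, was the 1 of the 11 tested ligands that was lower without overlap, against 6.67% of all genes tested. It measured 0, 0, 0.09 and 1.27 TPM in Cr1l tumours and 10.8, 28.13 and 3.12 TPM in Vec tumours (log2 difference -3.16, SE 0.64, limma adjusted p = 0.132). With an average of 0.34 TPM in Cr1l tumours, it passed the minimum through the Vec tumours. Nothing is read from the 1 of 11. Ccl28, a mucosal ligand under the 1 TPM minimum, was also lower without overlap, at 0.1, 0.07, 0 and 0.02 TPM in Cr1l tumours and 0.19, 0.21 and 0.14 TPM in Vec tumours. In the authors' deposited table Ccl21a (-5.50, adjusted p = 0.000646) and Ccl21b (-6.88, adjusted p = 0.0308) were the 2 of these ligands that were lower, against 2.27% of all genes. Ccl21a and Ccl21b are near-identical copies, so reads may be split between them. Keratinocyte markers summed to 0.41 to 44.2 TPM in Cr1l tumours and to 7.58 to 840 TPM in Vec tumours, and skeletal muscle markers to 2.93 to 227 TPM and to 45.1 to 1269 TPM in Cr1l and Vec tumours. The part of these tissues in the Ccl21a values was not tested.

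Of 12 other CC receptors and scavengers listed, 6 were tested, all with overlapping groups. None passed the threshold or an unadjusted p under 0.05. Over all genes tested, 9.29% were higher without overlap and 9.49% higher at that unadjusted p, so nothing is read from the lack among 6 genes. Ccr3 and Ccr8 averaged under 1 TPM in Vec tumours and entered through the Cr1l tumours, so the direction over the 6 is not read. Ccr7, the receptor of CCL21, measured 2.72, 2.57, 20.29 and 10.02 TPM in Cr1l tumours and 6.96, 1.68 and 0.44 TPM in Vec tumours (1.25, limma adjusted p = 0.447). Vec 5 lay above Cr1l 1 and Cr1l 2. Ccr3, the eosinophil receptor, differed by 1.21 (limma adjusted p = 0.409), with 6.09 and 2.63 TPM in Cr1l 3 and Cr1l 4 and at most 0.2 TPM in the other tumours. It was the 1 receptor of the list that was higher at an adjusted p under 0.05 in the authors' deposited table. Ackr1, an endothelial scavenger of CC ligands, differed by 1.17 (limma adjusted p = 0.462).

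**Figure D5:**
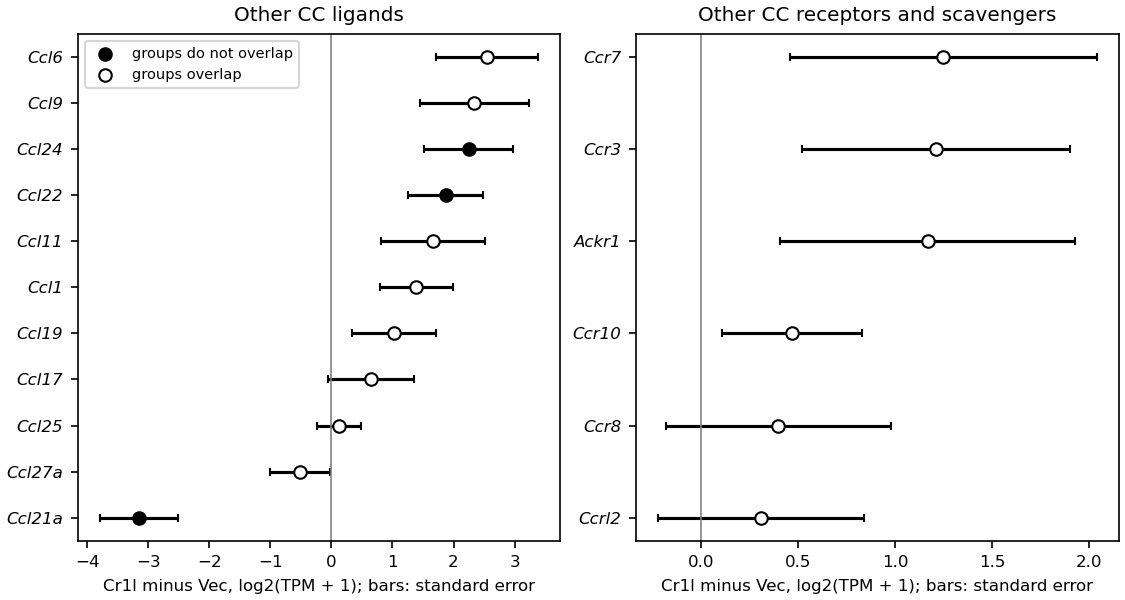
Difference Cr1l minus Vec in log2(TPM + 1) for the other CC ligands (left) and CC receptors (right) that were tested; bars are standard errors, and filled points mark genes whose groups do not overlap. Ccl24 and Ccl22 are the filled points above 0 and Ccl21a, at -3.16, the one below.

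Of 10 cytokines known to induce such chemokines or act on monocytes, 6 were tested. None separated the groups, against 9.29% of all genes tested that were higher without overlap and 6.67% lower, so nothing is read from it. Il1b, an inflammatory cytokine of myeloid cells, differed most, with 6.05, 13.36, 55.28 and 22.45 TPM in Cr1l tumours and 15.81, 1.46 and 0.57 TPM in Vec tumours (2.25, limma adjusted p = 0.31). Ifng differed by 1.12 (limma adjusted p = 0.343), Tnf by 0.84 (limma adjusted p = 0.471) and Il6 by -0.27 (limma adjusted p = 0.895). Ifng and Tnf averaged under 1 TPM in Vec tumours (0.563 and 0.863 TPM) and entered through the Cr1l tumours. Positive differences were found for 8281 of the 14954 genes tested. Of 10 genes induced by or feeding back on NF-kB, all 10 were tested, 6 were positive, near that share, and the median was 0.27. Among them 1 was higher and 1 lower without overlap, near the 9.29% and 6.67% of all genes. These were Relb, a subunit of the alternative pathway (0.78, limma adjusted p = 0.314), and Nfkbib, an inhibitor (-0.55, limma adjusted p = 0.225). Nfkbia, the classical feedback inhibitor, differed by -0.01.

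The libraries do not keep strand. In an older annotation than the submitters' build, the predicted gene Gm17268 overlaps Ccl2 on the opposite strand, so its reads could not be told apart from those of Ccl2. In that set no annotated gene overlaps any of the other 8, while the RefSeq spans of Ccl4 and Ccl3, on opposite strands, overlap over 755 bases, so those 2 are less certain.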

How the data were processed

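RNA was measured in 7 tumours, grouped by the sample labels into 4 Cr1l and 3 Vec tumours. Per the labels' protocols, poly-T selected messenger RNA was made into non-directional libraries. RSEM, DESeq2 and mm39 are named per the submitters' processing notes. For the tools' versions, the aligner and the annotation: not given in the sources used here. As deposited, expression is in log2(TPM + 1) for each gene symbol and tumour. Undone, the values sum to between 993520 and 996031 per tumour. TPM keeps no depth.

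The authors' deposited table of group comparisons holds a mean normalized signal, log2 fold changes with standard errors, a score and p-values per Ensembl ID. Of its 28369 IDs, 27182 were matched to symbols. It is used only as the authors' values.

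Differences were fitted with limma 3.58.1 (R 4.3.3) on log2(TPM + 1), with a variance trend, for the 14954 genes that averaged 1 TPM or more, tested on simulated data first. The p-values were two-sided and Benjamini-Hochberg adjusted over those genes, with a threshold of 0.05. Single values were set beside an exact permutation test on the absolute difference of means over 35 assignments. The labels call the replicates separate tumours. Whether the tumours came from 1 culture is not given, so p-values measure the spread between these tumours. The 9 genes, the marker lists and the other lists were chosen with earlier results of these data known. Beside the 9 genes, the rule names the members of 4 lists, the 5 genes most like Ccl2, Ccr2 and Ccl5, predicted genes left out, and Cr1l. Outside it, single cell markers and the 2 genes past the threshold were named after their values were seen, and a gene overlapping Ccl2 is named without a value. Alternatives tried were a pseudocount of 0.1, no filter, median-of-ratios scaling, no trend, sample weights, a marker covariate, and tumours left out singly or in pairs. The table of immune receptor repertoires was not used, and some results are not reported here. Promoter windows came from RefSeq.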

Additional observations from a re-analysis of the deposited data

How the results depend on the processing

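Over 16 alternative settings, none of the 9 genes passed the threshold, and 137 of 144 values kept their direction. The 7 that reversed were those of Ccl8 without Cr1l 3 and Cr1l 4 together (-0.0064) and of Ccl5 with sample weights (-0.065, in a weighting that stopped before converging), with the marker mean as covariate (-0.75), without Cr1l 3 (-0.30, in a range of -0.30 to 0.85 over single tumours left out), without Vec 6 and Vec 7 together (-0.17), without Cr1l 3 and Cr1l 4 together (-0.97) and relative to the markers (-0.88). The last setting was chosen after seeing the data. The cause was not tested. Across all settings Ccr2 ranged over 1.92 to 3.96, Ccl2 over 1.29 to 3.01 and Ccl7 over 1.49 to 3.18. The lowest adjusted p, 0.0624, was reached by Ccr2 and Ccl7 with the covariate.

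Genes higher in Cr1l tumours past the threshold numbered 0, against 4 with a pseudocount of 0.1, 4 with median-of-ratios scaling, 6 without the trend, 6 with sample weights, 1 without Vec 6 and Vec 7, 3 without Cr1l 3 and Cr1l 4, 2 relative to the markers, and 0 to 2 without single tumours. Genes lower numbered 2, against 0 without the filter, 6 with median-of-ratios scaling, 7 without the trend, 8 with sample weights, 4 with the covariate, 6 without Cr1l 3 and Cr1l 4, 37 relative to the markers, and 0 to 6 without single tumours. The count of the 9 genes higher without overlap was 6, and 6 to 7 without single tumours. Leaving out a tumour cannot lower this count, so its steadiness is not read as a result. The share of all genes without single tumours is not given here. No paired analysis was possible because the groups share no replicate number. The depth of each tumour is unknown. In the authors' deposited table the mean normalized count over the tumours was 1110 for Ccr2 and 469 for Ccr1, with no count per group. How far depth limits these genes in Vec tumours was not tested. For the 4 Cr1l tumours, 16 sets of values were examined for a single tumour far from the others, and none was found. The check looks for 1 tumour, not for a pair such as Cr1l 3 and Cr1l 4. Vec, with 3 tumours, was not covered.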
